A study of Mus musculus with 4 samples.

Results

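The 8 genes Csad, Cdo1, Cth, Cbs, Mat1a, Gnmt, Bhmt and Ahcy encode enzymes of methionine, cysteine and taurine metabolism. They were followed in mouse liver with and without adrenal glands. A probe set, which is a group of short probes for 1 transcript, belonged to the group when the platform annotation gave it exactly 1 of these symbols. This found 9 of the 12422 probe sets, for 6 of the 8 genes. Cth and Cbs had no probe set under that rule and were not analysed here. The genes were picked with their signals on these same arrays known, Csad above all for its low signal after adrenalectomy at night, so every value of theirs is a description and carries no test. Of the 9 probe sets, 7 were called Present (detected) on all 4 arrays and 8 on at least 1.

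RNA of male C57BL/6 mouse liver was hybridised to 4 MG_U74Av2 arrays, 1 per group. The groups were ADX at ZT14, ADX at ZT2, sham at ZT14 and sham at ZT2. ADX is the surgical loss of both adrenal glands, sham is the operated control with its glands, and zeitgeber time (ZT) counts hours from lights on. All mice ate standard chow, and the ADX mice drank 0.9% NaCl where the sham mice drank water, so that adrenal loss and the salt in the water cannot be told apart. The labels describe ketamine and xylazine anaesthesia with the ADX mice. The number of animals per array is not stated: the sham titles speak of a mouse and the ADX titles of mice.

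Methionine is turned into S-adenosylmethionine by methionine adenosyltransferase, of which Mat1a encodes the liver form. S-adenosylmethionine gives its methyl group away, in liver largely through glycine N-methyltransferase (Gnmt), and the product is split by S-adenosylhomocysteine hydrolase (Ahcy) to homocysteine. Homocysteine is either methylated back to methionine, by betaine-homocysteine methyltransferase (Bhmt), or passed through cystathionine beta-synthase (Cbs) and cystathionine gamma-lyase (Cth) to cysteine. Cysteine dioxygenase (Cdo1) oxidises cysteine, and cysteine sulfinic acid decarboxylase (Csad) makes hypotaurine from the product, the precursor of the taurine that liver joins to bile acids.

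The sequences just before the RefSeq transcription starts are shown for Csad and Bhmt, the well-detected members whose signals differed most between arrays, and for Gnmt and Ahcy, whose signals differed less. Each run holds the 250 bases before a start, from the RefSeq table of build GRCm38.p6, 5′ to 3′ on the gene's own strand, which is the minus strand for all 5 runs. Csad has 2 starts in the table, and the runs before them lie at chr15:102205053-102205302 and chr15:102189044-102189293. The Bhmt run lies at chr13:93637759-93638008, the Gnmt run at chr17:46729166-46729415 and the Ahcy run at chr2:155074498-155074747. Capitals mark every match, on either strand, to the 5 motifs described after the runs.
Csad, outer start: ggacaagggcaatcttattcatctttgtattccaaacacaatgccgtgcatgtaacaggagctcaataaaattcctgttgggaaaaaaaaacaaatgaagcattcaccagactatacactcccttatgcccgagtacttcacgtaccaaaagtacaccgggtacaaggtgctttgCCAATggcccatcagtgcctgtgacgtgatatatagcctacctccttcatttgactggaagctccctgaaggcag
Csad, inner start: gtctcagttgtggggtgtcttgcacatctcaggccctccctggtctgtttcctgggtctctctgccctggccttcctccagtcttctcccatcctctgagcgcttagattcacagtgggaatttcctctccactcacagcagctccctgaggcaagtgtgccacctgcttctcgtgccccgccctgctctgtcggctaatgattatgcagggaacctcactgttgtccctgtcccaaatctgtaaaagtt
Bhmt: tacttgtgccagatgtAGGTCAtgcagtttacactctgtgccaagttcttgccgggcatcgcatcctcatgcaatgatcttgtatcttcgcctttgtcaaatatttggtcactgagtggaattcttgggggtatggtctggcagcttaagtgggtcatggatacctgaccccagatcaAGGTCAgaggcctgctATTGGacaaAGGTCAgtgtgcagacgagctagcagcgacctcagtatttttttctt
Gnmt: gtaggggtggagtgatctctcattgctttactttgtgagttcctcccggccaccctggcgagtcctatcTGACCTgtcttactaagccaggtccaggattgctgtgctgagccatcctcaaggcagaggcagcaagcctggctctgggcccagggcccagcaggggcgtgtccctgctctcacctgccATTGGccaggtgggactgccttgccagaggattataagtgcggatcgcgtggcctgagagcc
Ahcy: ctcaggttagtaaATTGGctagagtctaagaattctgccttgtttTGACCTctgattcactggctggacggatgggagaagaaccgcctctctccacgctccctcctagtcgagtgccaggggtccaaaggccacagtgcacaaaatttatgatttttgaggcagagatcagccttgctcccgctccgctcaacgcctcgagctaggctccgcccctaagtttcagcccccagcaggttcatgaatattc

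The 5 motifs were searched as exact letters. They were CACGTG (the E-box of the clock activators), AGAACA (a core of the glucocorticoid receptor's element), AGGTCA (a core of many nuclear receptor elements), TTATGTAA (the D-box of Dbp and its relatives) and CCAAT. The first 2 and the D-box had no match in the 5 runs, while 6.02%, 16.1% and 0.819% of 32851 runs of this length in the table held them. No match overlapped another. CCAAT, found in 33.8% of all runs, stood 75 bases before the outer Csad start and was found in the Bhmt, Gnmt and Ahcy runs too. The inner Csad start had 0 matches. AGGTCA, which 14.0% of all runs hold at least once, was found 3 times before Bhmt, at 234, 72 and 47 bases, and 3 or more matches were found in 0.131% of all runs. The cut of 3 is the Bhmt count itself, and no such share was taken for the other motifs. Gnmt and Ahcy held AGGTCA once each. A match is a run of letters, and binding was not measured.

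Probe sets called Present numbered 5543 to 5865 per array. Of 9 hepatocyte marker genes 8 had a probe set, and all 8 were Present on every array, with summed signals of 37360 to 37542 in ADX livers and 38208 to 39475.5 in sham livers. Summed signals of the other marker lists were 431.9 to 460.7 in ADX livers and 388.2 to 448.7 in sham livers for blood and immune cells (7 of 8 markers with a probe set), 129.5 to 174.7 and 103.6 to 111.4 for stellate cells (5 of 5), and 149.9 to 180.4 and 124.8 to 165.0 for exocrine pancreas (4 of 7), with the endothelial sums (5 of 5) between 126.6 and 133.0 throughout. These sums include signals without a Present call. Among 5 stellate markers, 1 was Present on each sham array, 4 in ADX at ZT2 and 2 in ADX at ZT14. Among 4 pancreas markers, 1 was Present on each array. Red cell markers (2 of 4) summed to 1468.3 to 1959.7 in ADX livers and 1052.1 to 1755.0 in sham livers, highest on the ADX ZT14 array and lowest on the sham ZT14 array. That order was the order of Hba-a1 (1788.8 and 873.8 units on these arrays). The other marker, Alas2, was lowest on the ADX ZT14 array, at 170.9 units against 178.3 to 207.5 on the others. Of 4 kidney markers, Kap alone was Present on the ADX ZT14 array, with 39.8 units there against 4.0 to 5.1 on the others. Slc12a1 was Present on the ADX ZT2 array alone, at 9.3 units. Slc34a1 was Present on the sham ZT14 array alone, at 8.6 units, and Umod on none. None of the skeletal muscle markers (4 of 4) or bile duct markers (2 of 4) was Present on any array. Of the adipose markers (2 of 4), Adipoq was not Present on any array, while Fabp4 was Present on all, with 5.6 units in ADX at ZT14 and 8.1 in ADX at ZT2, against 10.8 in sham at ZT14 and 9.4 in sham at ZT2, so that it was lowest on the ADX ZT14 array. The 3′ to 5′ ratio of the actin control was 1.73 on the ADX ZT14 array and 1.69 to 1.89 on the others. That of the Gapdh control was highest on the ADX ZT14 array, at 1.03 against 0.91 to 0.95 on the others. The ADX ZT14 array also had the fewest Present probe sets (5543). The part of these differences in the results was not tested. In whole liver, fewer cells of a type and less RNA per cell cannot be told apart.

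Csad was the member with the widest difference, and 1 array accounted for it. Its probe set 99184_at had a scaled signal (in array units, after all arrays were brought to a common trimmed mean) of 195.1 in ADX livers at ZT14 and 579.1 in ADX livers at ZT2, against 611.2 in sham livers at ZT14 and 628.7 in sham livers at ZT2. The ADX ZT14 array was the low one, and the other 3 lay within 1.09-fold of each other. Csad was thus 3.13-fold lower in ADX than in sham livers at ZT14 (log2 difference -1.65), and 2.97-fold lower at ZT14 than at ZT2 in ADX livers (log2 -1.57). Both differences rest on the same ADX ZT14 array.

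The other pairs of arrays gave almost equal Csad signals. At ZT2 the log2 difference between ADX and sham was -0.12, and between ZT14 and ZT2 in sham livers it was -0.04. The ADX day-night difference minus the sham day-night difference was therefore -1.53. With 1 array per group no replicate error exists. As a yardstick, the log2 differences of all probe sets Present on both arrays had a robust SD of 0.31 for ADX against sham at ZT14, 0.25 at ZT2, 0.33 for the day-night pair in ADX livers and 0.35 for that in sham livers. That is a spread over probe sets and not over animals.

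Of the 1970 probe sets that averaged 100 units or more, Csad had the 2nd lowest difference between ADX and sham at ZT14, where 10 were at least 2-fold lower and 7 at least 2-fold higher. For the ADX day-night pair it was the 7th lowest of 1970, and for the difference of the day-night differences the 6th lowest of 1973. Csad was picked for its low ADX ZT14 signal, so these ranks only describe that signal. At ZT2 it ranked 529th from the lowest of 1971, and in the sham day-night pair 952nd of 1972. Before any scaling the deposited signals were 182.8 in ADX at ZT14 and 555.5 in ADX at ZT2, against 625.4 in sham at ZT14 and 679.5 in sham at ZT2, in the same order.

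Cdo1, the enzyme step before Csad, was also lowest on the ADX ZT14 array, by much less. Its probe set 96346_at had 1791.6 units in ADX at ZT14 and 2395.1 in ADX at ZT2, against 2344.6 in sham at ZT14 and 2467.2 in sham at ZT2. The difference from sham at ZT14 was 1.31-fold (log2 -0.39) and that from ADX at ZT2 was 1.34-fold (log2 -0.42), both short of 2-fold. These ranked 170th and 183rd from the lowest among the brighter probe sets. Its signals on the ADX ZT2 array and both sham arrays overlapped within 1.05-fold, with log2 differences of -0.04 for ADX against sham at ZT2 and -0.07 for ZT14 against ZT2 in sham livers, the last of which became 0.01 under quantile normalization.

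**Figure D1:**
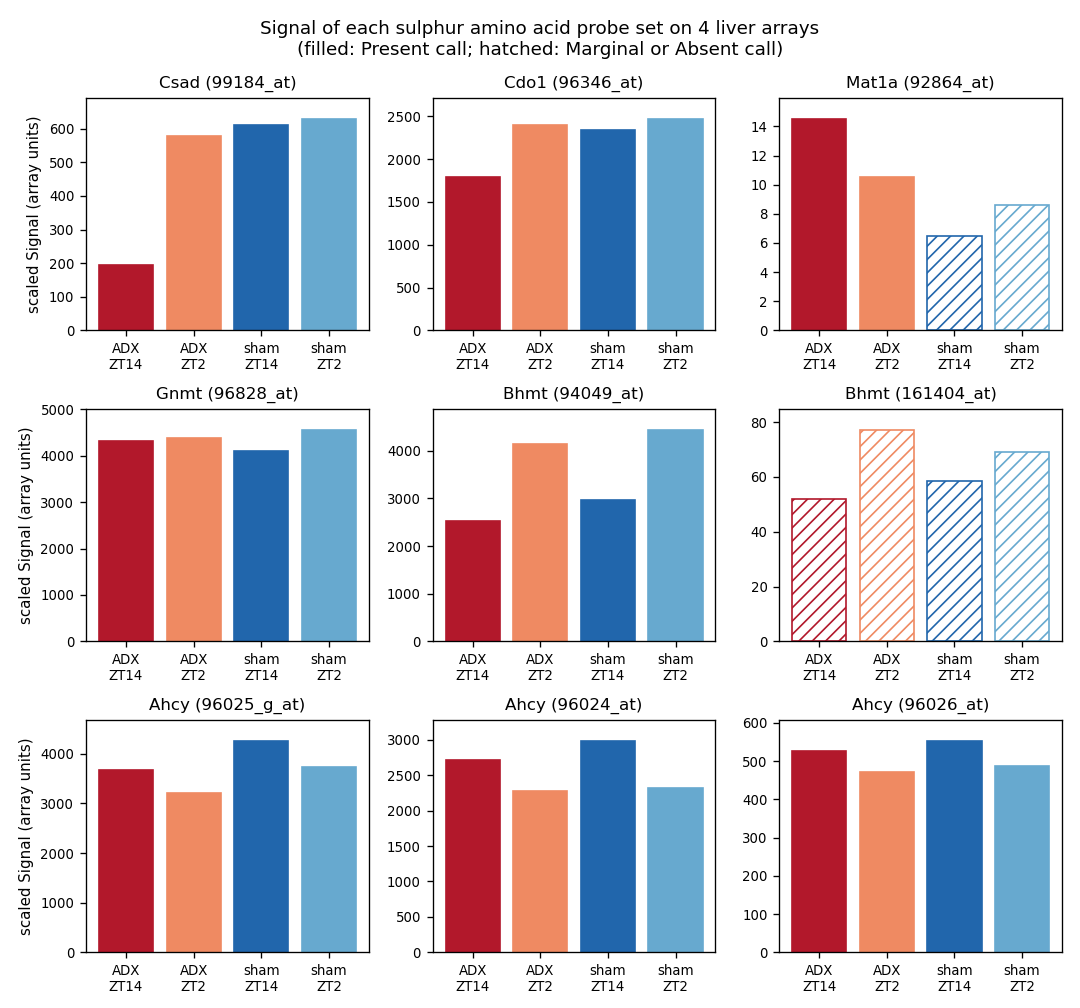
Scaled signal (array units, each axis from 0) of the 9 member probe sets on the 4 arrays, 1 bar per array, filled where the call was Present and hatched where it was Marginal or Absent. The Csad bar of the ADX ZT14 array stands at 195.1 against 579.1 to 628.7 on the others, Cdo1 is lowest on the same array, and both Bhmt probe sets are lower at ZT14 than at ZT2.

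Bhmt, which recycles homocysteine with betaine as the methyl donor, was lower at ZT14 than at ZT2 with and without adrenal glands. Its bright probe set 94049_at had 2535.9 units at ZT14 and 4150.7 at ZT2 in ADX livers. In sham livers it had 2965.2 units at ZT14 and 4430.1 at ZT2. Both ZT14 signals lay below both ZT2 signals.

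The day-night difference of Bhmt was 1.64-fold in ADX livers (log2 -0.71) and 1.49-fold in sham livers (log2 -0.58), neither past 2-fold. It ranked 64th and 108th from the lowest among 1970 and 1972 brighter probe sets. These 2 pairs share no array, and the difference between them was -0.13 on the log2 scale. ADX against sham was -0.23 at ZT14 and -0.09 at ZT2. The second Bhmt probe set, 161404_at, designed from a short sequence tag, was Present on no array and Marginal on 1, with 52.0 units at ZT14 and 77.0 at ZT2 in ADX livers, and 58.5 at ZT14 and 68.9 at ZT2 in sham livers. It too was dimmer at ZT14 in both pairs, but an undetected signal has no firm size.

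Ahcy, the hydrolase that keeps S-adenosylhomocysteine low, was higher at ZT14 than at ZT2 in both pairs by all 3 of its probe sets, always short of 2-fold. By 96025_g_at it had 3666.0 units at ZT14 and 3199.3 at ZT2 in ADX livers, and 4249.1 at ZT14 and 3740.6 at ZT2 in sham livers. The log2 differences between the times were 0.20 in ADX and 0.18 in sham livers by that probe set, 0.25 and 0.36 by 96024_at, and 0.16 and 0.18 by 96026_at. All 3 probe sets thus gave the same order of the times, under the other scalings too. The probe sets are no replicates: 96024_at and 96025_g_at were designed from the same mRNA record. Near-identical Ahcy copies are known in mammalian genomes, and the probes were not checked against them.

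Between ADX and sham livers the Ahcy differences were small. At ZT14 the log2 differences were -0.21, -0.14 and -0.07 by the 3 probe sets in the same order, and at ZT2 they were -0.23, -0.02 and -0.05. All 6 were within the robust SD over probe sets, and the ZT2 values of 96024_at and 96026_at became 0.00 and 0.01 under quantile normalization. By 96025_g_at the sham ZT14 array was highest and the ADX ZT2 array lowest, a range of 1.33-fold.

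Gnmt, the main consumer of S-adenosylmethionine in liver, was the steadiest member. Its probe set 96828_at had 4321.4 units in ADX at ZT14 and 4375.2 in ADX at ZT2, against 4092.3 in sham at ZT14 and 4549.3 in sham at ZT2. The highest signal was 1.11-fold the lowest. The operations overlapped, and both ZT14 signals lay below both ZT2 signals, by small amounts. ADX against sham gave 0.08 at ZT14, which turned to -0.05 with the signals as deposited, and -0.06 at ZT2, which turned to 0.03 under quantile normalization. The day-night differences were -0.02 in ADX and -0.15 in sham livers.

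The Mat1a probe set was dim, although Mat1a is known as the methionine adenosyltransferase gene of liver. This probe set, 92864_at, had 14.5 units in ADX at ZT14 and 10.5 in ADX at ZT2, both Present, against 6.5 in sham at ZT14 and 8.6 in sham at ZT2, both Absent. All 4 signals were under the 16.6 units that 90% of Absent signals did not exceed. The deposited description of the probe set names a mouse S-adenosylmethionine synthetase mRNA with an unknown coding region. By size alone the gene was at least 2.22-fold higher in ADX than in sham livers at ZT14. With a floor of 16.6 units on dim signals the difference was 0.00, and with a doubled floor of 7.82 units it was 0.89, short of 2-fold. The signals near this level hold no firm order.

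**Figure D2:**
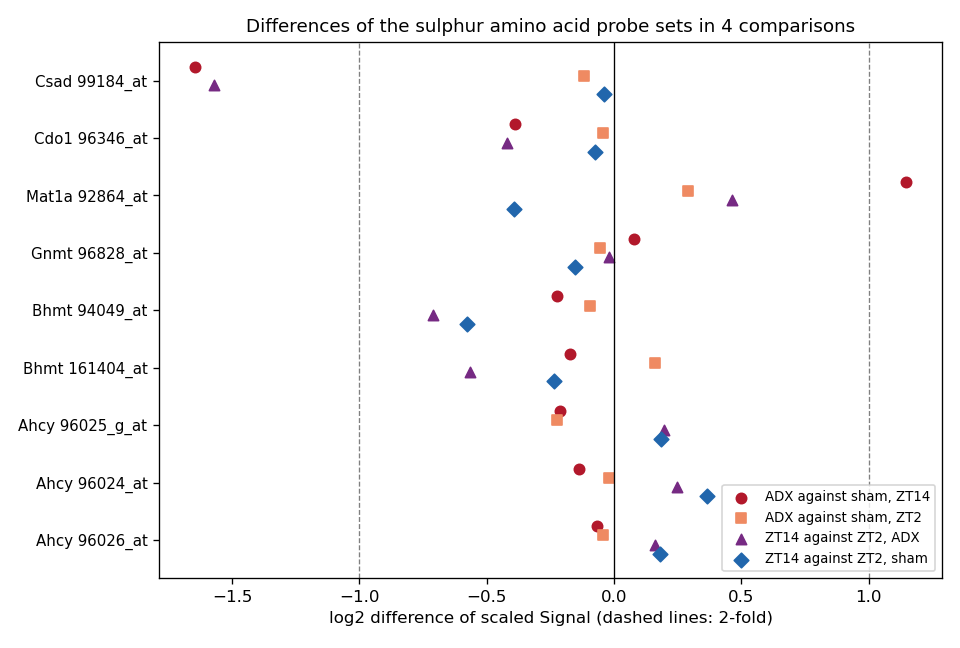
Log2 differences of scaled signal of the 9 member probe sets (rows) in the 4 comparisons (marker shapes), with dashed lines at 2-fold. Csad lies at -1.65 and -1.57 in the comparisons that use the ADX ZT14 array, Mat1a at 1.15 for ADX against sham at ZT14, and all other points lie inside the dashed lines.

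Counted as genes by the brightest probe set, with at least 2-fold and a Present call on the brighter array as the rule, 1 of 6 members was lower (Csad) and 1 of 6 higher (Mat1a) in ADX than in sham livers at ZT14. Of all 4619 genes Present on at least 1 of those arrays, 1.39% were lower and 2.01% higher. At ZT2, 0 of 6 members passed either way, against 0.77% of 4803 genes lower and 1.48% higher. In the day-night pair of ADX livers, 1 of 6 was lower at ZT14 (Csad) and none higher, against 2.23% lower and 2.69% higher of 4714 genes. In the day-night pair of sham livers, 0 of 5 detected members passed, against 2.32% lower and 3.16% higher of 4742 genes. The members' median log2 differences, in the order of these comparisons, were -0.22, -0.08, -0.22 and -0.07, and those of all genes 0.03, 0.01, 0.00 and -0.01. These counts use the signals by which the genes were picked.

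Around the members, 73 further genes of the methionine cycle, methyl group and folate supply, polyamines, cysteine oxidation and glutathione were listed, and 44 had a probe set. Between ADX and sham livers, 0 of 38 detected genes passed 2-fold at ZT14 and 0 of 38 at ZT2, with medians of 0.09 and 0.05. In the ADX day-night pair 2 of 37 were lower at ZT14 and 1 was higher, with a median of 0.12. In the sham day-night pair 2 of 39 were lower and 1 was higher, with a median of 0.05. These shares stand beside the percentages of all genes given above, and nothing particular to the lists is read from them.

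Ethe1, the mitochondrial dioxygenase that clears persulfide from sulphide breakdown, was lower at ZT14 with and without adrenal glands. Its signal was 250.8 at ZT14 and 609.9 at ZT2 in ADX livers, 2.43-fold lower. In sham livers it was 392.6 at ZT14 and 805.2 at ZT2, 2.05-fold lower (log2 -1.04, and -0.97 and so short of 2-fold under quantile normalization). The ZT14 signals lay below both ZT2 signals, and at each time the ADX signal was the lower one, by log2 differences of -0.65 at ZT14 and -0.40 at ZT2.

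Gldc, the glycine-cleaving subunit that feeds one-carbon units to folate, followed the same order of arrays. It had 104.3 units at ZT14 and 300.7 at ZT2 in ADX livers, 2.88-fold lower, and 166.9 at ZT14 and 330.0 at ZT2 in sham livers, 1.98-fold lower and so just short of 2-fold (log2 -0.98, and -1.06 with the signals as deposited). ADX against sham gave -0.68 at ZT14 and -0.13 at ZT2. The difference of its day-night differences, ADX minus sham, was -0.54, against -1.53 for Csad.

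Gclc, the catalytic subunit of the first enzyme of glutathione synthesis, was lower at ZT14 past 2-fold in sham livers alone, with 234.2 units at ZT14 and 536.5 at ZT2, 2.29-fold lower. In ADX livers it had 317.1 units at ZT14 and 436.2 at ZT2, 1.38-fold lower. The day-night signals of each operation lay in the same order, and no test of the difference between the operations is possible. Papss2, which makes the activated sulphate used by sulphotransferases, was 2.09-fold higher at ZT14 in ADX livers (210.8 units at ZT14 and 100.7 at ZT2) and 1.49-fold higher in sham livers (174.7 units at ZT14 and 117.1 at ZT2). Srm, the spermidine synthase, was 2.00-fold higher at ZT14 in sham livers, with 77.8 units at ZT14 and 38.9 at ZT2, and had 58.1 and 58.8 units at these times in ADX livers. Its sham call ended under each of the 3 other scalings.

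By the brightest probe set of each gene, the close relatives of the members and the users of taurine stayed under 2-fold in all 4 comparisons. Bhmt2, a paralog of Bhmt that takes S-methylmethionine as methyl donor, had 315.7 units at ZT14 and 412.6 at ZT2 in ADX livers, and 331.2 at ZT14 and 399.1 at ZT2 in sham livers. Like Bhmt it was lower at ZT14 in both pairs, by log2 differences of -0.39 and -0.27. Ahcyl1, an Ahcy-like protein that binds the inositol trisphosphate receptor, ranged over 299.6 to 340.2 units. Slc6a6, the carrier that takes taurine into cells, had 128.1 units in ADX and 114.1 in sham livers at ZT14, and 116.6 in ADX and 116.9 in sham livers at ZT2. Its dimmer probe set, 94405_at, differed and was Present on the sham ZT2 array alone, at 20.7 units. By size alone it was at least 2.69-fold lower in ADX than in sham livers at ZT2. In sham livers it was at least 2.06-fold lower at ZT14 than at ZT2. Both folds are against Absent signals (7.7 and 10.1 units). These lie under the 16.6 units that 90% of Absent signals did not exceed, so neither fold has a firm size.

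Baat, which joins taurine or glycine to bile acids, had 378.5 units in ADX at ZT14 and 451.3 in ADX at ZT2, against 509.0 in sham at ZT14 and 491.6 in sham at ZT2. It was lowest on the ADX ZT14 array, as Csad and Cdo1 were, but so were Bhmt, Bhmt2, Ethe1 and Gldc. That order is thus not particular to taurine genes, and Slc6a6 was highest on that array by its brighter probe set. For Baat the log2 difference from sham was -0.43 at ZT14 and -0.12 at ZT2. Both are under 2-fold. Mat2a had no probe set under its single symbol and was not analysed here.

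**Figure D3:**
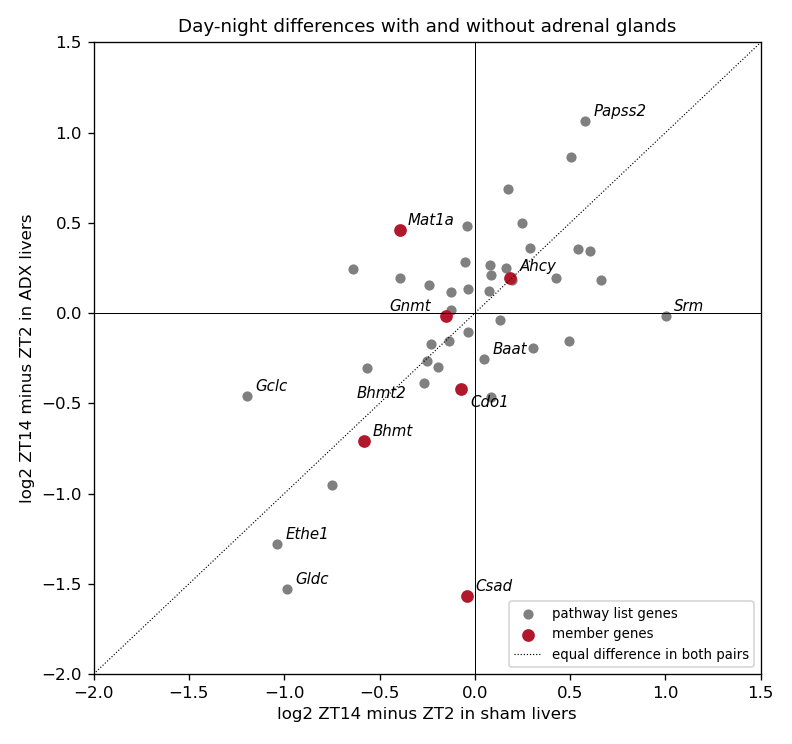
Log2 day-night difference (ZT14 minus ZT2) in ADX livers on the vertical axis against that in sham livers on the horizontal axis, 1 point per gene, for 6 members (red) and the pathway list genes Present on at least 1 array (grey). Csad lies at -1.57 in ADX and -0.04 in sham livers, far below the dotted line of equal differences, while Ethe1, Gldc and Bhmt lie below 0 in both pairs.

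To see which genes had signals shaped like those of the members, the log2 signals of each gene were centred on its own mean and the Euclidean distance over the 4 arrays was taken, among 2594 genes Present on at least 3 arrays with a mean of at least 50 units. The 5 genes nearest to Csad were Abhd5 (distance 0.43), Fdps (0.50), Car14 (0.54), Cd164 (0.66) and Idi1 (0.67). Each was lowest on the ADX ZT14 array. Abhd5 had 41.0 units in ADX at ZT14 and 91.8 in ADX at ZT2, against 96.5 in sham at ZT14 and 87.9 in sham at ZT2, so that the 3 higher arrays were close together as for Csad. Fdps had 527.0 units in ADX at ZT14 and 1133.7 in ADX at ZT2, against 1020.4 in sham at ZT14 and 1240.6 in sham at ZT2. Csad was nonetheless lower on that array, relative to its own mean, than any of the 5.

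The genes nearest to Bhmt lay closer, at distances of 0.07 to 0.11, and were Gucd1, Gjb1, Psmd4, Cp and Egfr. Gjb1 had 452.7 units at ZT14 and 727.5 at ZT2 in ADX livers, and 558.6 at ZT14 and 781.1 at ZT2 in sham livers. For the dim Mat1a probe set the 5 nearest were Lgals1, Herc1, Ube2z, Impa1 and Tex264, at 0.14 to 0.30. With 4 arrays, many genes can have nearly the same shape, and no p-value is attached to a distance.

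**Figure D4:**
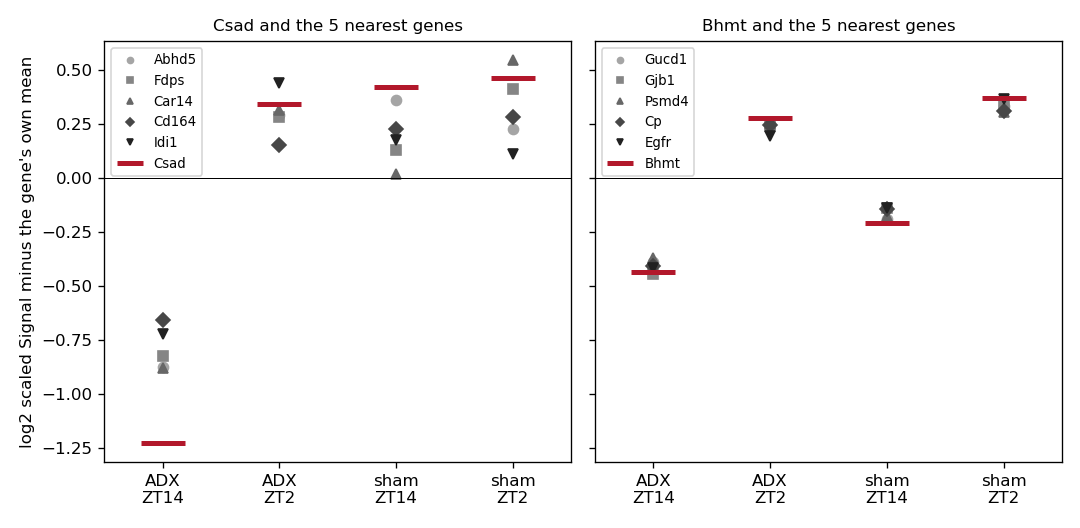
Log2 scaled signal minus the gene's own mean on the 4 arrays for Csad (left, red bars) and Bhmt (right, red bars) and the 5 nearest genes of each (grey markers). Csad and its 5 nearest genes are lowest on the ADX ZT14 array, while Bhmt and its 5 nearest are below their mean on both ZT14 arrays.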

How the data were processed

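The data are 4 Affymetrix arrays of mouse liver RNA, 1 per group, grouped by the sample titles. Per the file headers, the authors deposited 3 columns per array: the Signal of each probe set (a linear intensity from that array alone), its detection call and its detection p-value. The deposited p-value entered only as the call (Present, Marginal or Absent). Software and scaling: not given in the sources used here. Intensities in the series value table equalled these (largest difference 0).

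Each array was scaled to a common 2% trimmed mean (factors 1.07 for ADX ZT14, 1.04 for ADX ZT2, 0.977 for sham ZT14 and 0.925 for sham ZT2), signals under a floor of 3.91 units (the median Absent signal) were set to it, and differences are on the log2 scale. Control probe sets (66) were dropped after scaling. Per the platform annotation, 10833 probe sets had 1 gene symbol and 396 several. The brightest probe set stood for each of 8251 genes. A difference was called at 2-fold or more with a Present call on the brighter array. Against an array without a Present call, the fold is a lower bound.

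All arrays were hybridised on 1 day in 1 fluidics station, each in its own module, so module and group cannot be told apart. The number of arrays limits the precision. Members, lists and rules for named genes (all members, list genes past 2-fold, Mat2a, Bhmt2, Ahcyl1, Slc6a6, Baat and the 5 nearest genes) were chosen with earlier results of these data known. The call rule was tested on simulated data, with changes larger than 2-fold put into probe sets Present on every array. Changes of 2-fold or less, and changes in undetected signals, were not put in. Alternatives were other scalings, floors, fold sizes, probe set averaging and a detection filter. Python 3.11.15, NumPy 2.4.6, pandas 2.3.3 and Matplotlib 3.10.9 were used.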

Additional observations from a re-analysis of the deposited data

Results flagged for a closer look

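Each of these results had opposite signs under the same comparison in 2 settings (ADX and sham livers, or ZT14 and ZT2), and the difference was not tested, since each group had 1 array. For ZT14 against ZT2, Mat1a had a log2 difference of 0.46 in ADX and -0.39 in sham livers. Srm had -0.02 in ADX livers and was 2.00-fold higher at ZT14 in sham livers. Baat had -0.25 in ADX and 0.05 in sham livers, Slc6a6 0.14 and -0.04, and Ahcyl1 0.12 and -0.13, in the same order. For ADX against sham, Gnmt had 0.08 at ZT14 and -0.06 at ZT2. Gclc had 0.44 at ZT14 and -0.30 at ZT2, Papss2 0.27 and -0.22, Srm -0.42 and 0.60, Ahcyl1 0.06 and -0.18, and Bhmt2 -0.07 and 0.05, in the same order. Apart from those of Mat1a, Srm and Gclc, each value is within the robust SD over probe sets of its comparison. With the signals as deposited, Gnmt, Ahcyl1 and Bhmt2 for ADX against sham, and Baat between the times, had the same sign in both settings.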

How the results depend on the processing

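No paired analysis was possible because each group has 1 array and the labels give no replicate numbers, and no array could be left out for the same reason. Csad kept its calls under all 9 alternatives, at log2 -1.77 to -1.64 for ADX against sham at ZT14 and -1.60 to -1.56 for the ADX day-night pair. Only the other scalings could change these values. Csad had a single probe set, Present on every array and far above the floors, so the remaining alternatives could not. Of 265 single-gene values under alternatives, 257 counted as unchanged, 4 moved, 2 lost and 2 gained a call. To count as unchanged, a called value had to keep its call, and an uncalled value could shift by up to the robust SD over probe sets. Some of these changed sign, such as Gnmt for ADX against sham at ZT14 (0.08, and -0.05 with the signals as deposited). Every member but Mat1a lay far above the floors, so the floors could not change its values. The 1.5-fold setting and the filter on Present calls change no value, and averaging changes none for a gene with a single probe set. Many of the 257 were thus fixed in advance, and that count does not measure robustness. The signals as deposited shifted the median of all detected probe sets by -0.11 (ADX against sham at ZT14) and -0.17 (at ZT2).

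Members past the fold in ADX against sham at ZT14 fell to 1 (Csad) under some alternatives, since Mat1a is dim. These were a doubled floor, a floor of 16.6 units and Present calls on all 4 arrays. At 1.5-fold the ADX day-night pair had 2 of 6 members (Csad and Bhmt). Pathway list genes past 1.5-fold numbered 3 of 38 and 1 of 38 for ADX against sham at ZT14 and ZT2. They numbered 5 of 37 and 8 of 39 for the day-night pairs of ADX and sham livers. The share of all genes past 1.5-fold was not taken, so nothing particular to the members or lists is read from these counts. Averaging probe sets gave 1 list gene past 2-fold for ADX against sham at ZT14. It was Mat2b, with log2 differences of 0.24 by 94469_at and 2.23 by 94468_at. The latter was Absent on every array, so that call rests on an undetected signal. Quantile normalization left 1 list gene in the sham pair. Of all 12422 probe sets, those past the fold numbered 864, 646, 1033 and 1110 at 1.5-fold. The order is ADX against sham at ZT14 and ZT2, then day-night in ADX and sham. At 2-fold with the main settings they numbered 244, 160, 327 and 367. They numbered 63, 24, 144 and 172 with a floor of 16.6 units, 54, 29, 130 and 157 with Present calls on all arrays, and 135 and 77 (first 2 comparisons) with a doubled floor. Quantile normalization turned the split of higher and lower probe sets to 118 and 120 in place of 147 and 97, 68 and 80 in place of 108 and 52, 148 and 201 in place of 177 and 150, and 161 and 193 in place of 211 and 156. As deposited it was 106 and 137, 69 and 90, 159 and 165, and 173 and 198.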
